A study of Mus musculus with 10 samples.

Results

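Non-muscle myosin II is the motor that contracts the actin cortex of cells outside muscle. The 10 genes described here encode 2 of its heavy chains (Myh9 and Myh10), its light chains (Myl6, Myl9, Myl12a and Myl12b), the kinases Mylk, Rock1 and Rock2, and the phosphatase subunit Ppp1r12a. They were taken by gene symbol from the deposited table of 57010 mouse gene identifiers, in which each symbol stood in 1 row. All 10 passed the filter on low values that left 12455 genes for testing, for which a gene had to average 10 or more normalized reads across the libraries. A normalized read count here is the number of reads of a gene in a library divided by 1 size factor for that library.

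The libraries were made from primary bone marrow-derived macrophages, which are marrow precursors turned into macrophages in a dish, here over 7 days in RPMI medium with 20 ng/mL recombinant mouse MCSF. The labels name 2 genotypes, WT and WASp KO (WKO). WASp, the product of Was, activates the Arp2/3 complex, which builds branched actin. Cells were either left unconfined or held for 1 h at a height of 3 µm under PDMS micropillars. There were 2 WT unconfined libraries (replicates 1 and 3), 2 WKO unconfined libraries (replicates 1 and 3), 3 WT confined libraries (replicates 2, 3 and 6) and 3 WKO confined libraries (replicates 1, 2 and 5). The labels do not give the strain, the Was allele, the number of mice or whether replicates came from separate mice, so that p-values measure the spread between these libraries, which may be technical.

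Myosin II is a hexamer of 2 heavy chains, 2 essential light chains and 2 regulatory light chains. Phosphorylation of the regulatory light chain by Mylk or by the kinases ROCK1 and ROCK2 lets the motor assemble into filaments and pull on actin, and the phosphatase that contains Ppp1r12a removes that phosphate. ROCK also phosphorylates Ppp1r12a and lowers the activity of the phosphatase. In macrophages this machinery drives cortical tension, retraction of the cell rear and movement through narrow spaces. Transcript levels do not report phosphorylation, so that the activity of the motor and of the kinases was not measured here.

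Recovered depth ranged from 13295701 to 19329908 reads per library, and a floor of 3 reads per library equals 2.35 to 3.59 after normalization. Was, the targeted gene, fell in WKO to 10.0% of the WT mean without confinement and to 6.62% with it (limma log2 differences -3.30 and -3.91, adjusted p = 4.38e-06 and 5.99e-08). The 10 macrophage markers were detected in every library. The summed level of 16 stromal or fibroblast markers ranged from 301 to 13759 over the libraries and was highest in WKO confined replicate 5, where 15 of the 16 had their highest value. The summed level of 10 neutrophil and progenitor markers lay between 24792 and 29830 in WKO unconfined libraries, between 6891 and 10837 in WT unconfined ones, between 6971 and 27924 in WKO confined ones and between 2545 and 7933 in WT confined ones. In such bulk samples fewer cells of a type and less RNA per cell cannot be told apart.

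The regulatory light chains are near copies of each other, which bears on how their reads can be assigned. The first 90 coding bases of the longest annotated transcripts (GENCODE M21, GRCm38) are printed with the 14 positions at which the 3 genes are not all alike in capitals.
Myl9: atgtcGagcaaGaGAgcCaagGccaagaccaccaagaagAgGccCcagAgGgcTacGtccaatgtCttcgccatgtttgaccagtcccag
Myl12a: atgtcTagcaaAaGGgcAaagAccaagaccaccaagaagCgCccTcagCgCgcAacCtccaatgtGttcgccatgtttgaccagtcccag
Myl12b: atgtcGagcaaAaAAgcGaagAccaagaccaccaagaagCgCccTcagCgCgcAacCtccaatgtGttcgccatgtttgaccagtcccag

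Each coding sequence is 516 bases long. Myl12a and Myl12b shared 498 of these bases (96.5%), with an identical run of 102 bases, while Myl9 shared 85.7% with Myl12a and 86.4% with Myl12b, with runs of at most 35 bases. The 2 Myl12 genes are neighbours on the minus strand of chromosome 17, Myl12a at chr17:70993656-71002878 and Myl12b at chr17:70973133-70990890. GENCODE M21 also annotates a joint gene on the same strand (ENSMUSG00000117098) that shares 739 exonic bases with Myl12b and 462 with Myl12a, and the deposited table lists it at 0 in all 10 libraries. How shared reads were treated is not given in the sources used here, so the split between Myl12a and Myl12b is uncertain. Myl12a also shares 207 exonic bases with Myom1 on the opposite strand (15 to 91 reads per library), and whether strand was used in counting is not given either. Myl9 lies apart from them, at chr2:156775420-156781658 on the plus strand.

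Of the 10 genes, Myh9 alone passed the test, lower in WKO than in WT cells and higher in confined than in unconfined cells, each averaged over the other factor. Myh9 (chr15:77760587-77842175, minus strand, 41 exons in its longest transcript) encodes the heavy chain of non-muscle myosin IIA, the main form in blood cells. Its normalized read count was 9941 and 11240 in WT unconfined cells, 8654 and 8463 in WKO unconfined cells, 14679, 13614 and 13974 in WT confined cells, and 9151, 12219 and 11202 in WKO confined cells. Every WKO library was below every WT library of the same condition, and every confined library was above every unconfined library of the same genotype.

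The WKO mean of Myh9 was 0.808 times the WT mean without confinement (8559 ± 135 against 10591 ± 918, SD, n = 2 each) and 0.771 times with it (10857 ± 1563 against 14089 ± 542, SD, n = 3 each). Averaged over both conditions, the log2 difference between WKO and WT was -0.35 (SE 0.0895, 95% interval -0.54 to -0.15), which passed with limma at an adjusted p = 0.0455. It was -0.30 without confinement (adjusted p = 0.515) and -0.39 with it (adjusted p = 0.0989), and neither passed alone. Myh9 was the only member of 10 that passed in the averaged genotype comparison, in which 5.57% of all tested genes did. The call stood close to the threshold: it was lost without any 1 of the 5 WT libraries or the 2 WKO unconfined ones (adjusted p between 0.0878 and 0.189), while the log2 difference stayed between -0.39 and -0.29 when any library was left out.

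Confinement went with more Myh9 in both genotypes. The confined mean was 1.33 times the unconfined mean in WT and 1.27 times in WKO. Averaged over genotypes, the log2 difference was 0.37 (SE 0.0895, 95% interval 0.18 to 0.57), which passed with limma at an adjusted p = 0.0321. It was 0.41 in WT (adjusted p = 0.181) and 0.33 in WKO (adjusted p = 0.255). Again Myh9 was the only one of the 10 genes that passed in the averaged comparison, against 6.21% of all tested genes. This call was lost without any 1 of the 4 unconfined libraries, the 3 WT confined libraries or WKO confined replicate 2 (adjusted p between 0.0572 and 0.128), with log2 differences between 0.33 and 0.43 when any library was left out. Neutrophils also contain Myh9, and the neutrophil and progenitor marker sum was higher in each WKO unconfined library than in each WT one, where Myh9 was lower; the part of such cells in the Myh9 values was not tested.

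**Figure D1:**
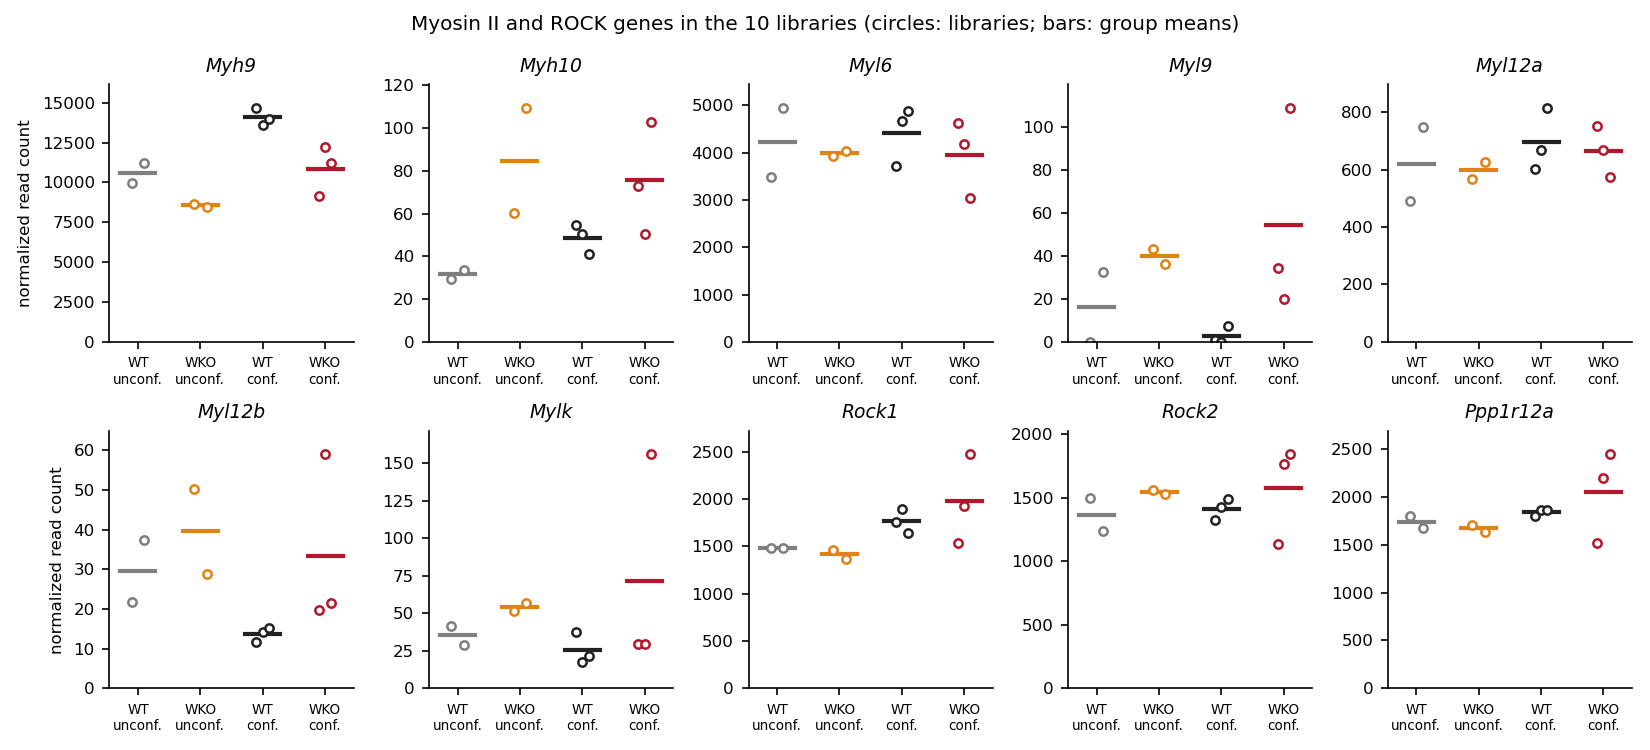
Normalized read counts of the 10 genes in each library (circles) with the group mean (bars), on linear axes from 0 that differ between panels; unconf. and conf. stand for unconfined and confined. Myh9 was lower in WKO than in WT and higher with confinement, while Myh10, Myl9, Myl12b and Mylk were low. In WKO confined libraries the SD of these low genes was 34.9% to 102% of the mean. For Myl9 it was 141% of the mean in both WT groups and 12.9% in WKO unconfined libraries.

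Myh10 (chr11:68691559-68816632, plus strand) encodes the heavy chain of non-muscle myosin IIB, which is the more abundant form in many non-blood tissues. Its normalized read count was 29.4 and 33.6 in WT unconfined, 60.2 and 109 in WKO unconfined, 54.6, 50.4 and 41.0 in WT confined, and 73.0, 50.5 and 103 in WKO confined libraries. The groups did not overlap without confinement, where the WKO mean was 2.69 times the WT mean, and overlapped with it, where the ratio was 1.55. The averaged log2 difference between WKO and WT was 0.96 (SE 0.261, 95% interval 0.39 to 1.53) and missed the limma threshold at an adjusted p = 0.0553. Per kilobase of the longest transcript, Myh9 made up 99.7% ± 0.0018 (SD, n = 2) of the 2 heavy chains in WT and 99.1% ± 0.396 (n = 2) in WKO cells without confinement, and 99.7% ± 0.043 and 99.3% ± 0.249 (n = 3 each) in confined cells.

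Of the light chains, none passed in any of the 7 comparisons, and they fell into 2 abundant and 2 scarce genes. Myl6 (chr10:128490860-128494145, minus strand) encodes the essential light chain that stiffens the lever arm of the motor. Its normalized read count was 3489 and 4946 in WT unconfined, 3927 and 4040 in WKO unconfined, 3714, 4660 and 4876 in WT confined, and 4619, 4180 and 3042 in WKO confined libraries. The groups overlapped in all 4 pairwise comparisons. The averaged limma differences were -0.12 on the log2 scale for WKO against WT (95% interval -0.42 to 0.18, adjusted p = 0.696) and 0.02 for confined against unconfined (95% interval -0.28 to 0.32, adjusted p = 0.947).

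Myl12a encodes a regulatory light chain that is expressed in most cell types. Its values were 490 and 748 in WT unconfined, 567 and 627 in WKO unconfined, 603, 667 and 815 in WT confined, and 751, 667 and 573 in WKO confined libraries. All groups overlapped, and the averaged limma differences were -0.04 for genotype (95% interval -0.35 to 0.26, adjusted p = 0.914) and 0.17 for confinement (95% interval -0.14 to 0.47, adjusted p = 0.525). These intervals leave room for differences of up to about the size seen for Myh9.

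Myl12b, its near-identical neighbour, was listed far lower, at 21.8 and 37.4 in WT unconfined, 50.3 and 28.9 in WKO unconfined, 11.8, 14.1 and 15.3 in WT confined, and 19.6, 59.0 and 21.6 in WKO confined libraries. The WT confined libraries were the lowest and did not overlap those of either WT unconfined or WKO confined cells. The log2 difference between WKO and WT was 1.05 in confined cells (SE 0.482, limma adjusted p = 0.299) and 0.73 averaged over conditions (95% interval -0.10 to 1.56, adjusted p = 0.315), and neither passed.

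Myl9, the regulatory light chain best known from smooth muscle and stromal cells, varied most of all members, with an SD of 2.45 on the log2 scale over the 10 libraries. It had 0 and 34 reads in the WT unconfined libraries (normalized read counts 0 and 32.6), 44 and 35 in WKO unconfined (43.4 and 36.1), 1, 0 and 9 in WT confined (1.07, 0 and 7.23), and 44, 19 and 91 in WKO confined (34.5, 20.0 and 109). Every WKO library was above every WT library of the same condition. In WT unconfined replicate 1 and WT confined replicate 3, which had no Myl9 read, a count of 0 allows up to the floor of 3 reads, or 2.85 and 3.52 after normalization.

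The fitted log2 difference of Myl9 between WKO and WT was 3.44 averaged over conditions (SE 0.939, 95% interval 1.39 to 5.49) and missed the threshold with limma at an adjusted p = 0.0558. It was 2.81 without confinement (adjusted p = 0.598) and 4.08 with it (adjusted p = 0.0977). Because several libraries were at or near 0, its size depends on the pseudocount: the averaged value was 2.23 with a pseudocount of 5 (adjusted p = 0.0448) and 3.93 with 0.5 (adjusted p = 0.0652). The 2 WT unconfined libraries moved it in opposite directions: it was 4.71 without replicate 3, which had 34 reads (adjusted p = 0.0125), and 2.17 without replicate 1, which had none (adjusted p = 0.181). Without confinement the value of 2.81 rested on replicate 1 as well, and fell to 0.27 without it (adjusted p = 0.991). On the recovered reads edgeR gave 1.28 for that comparison (adjusted p = 0.830) and 2.67 for the averaged one (adjusted p = 0.108). Per kilobase, Myl9 made up between 0 and 6.69% of the 3 regulatory light chains in WT unconfined libraries, up to 1.48% in WT confined, between 8.68% and 10.8% in WKO unconfined and between 4.55% and 24.0% in WKO confined ones. Myl12a made up most of the rest, with group means of 92.7% ± 4.85 (SD, n = 2), 97.7% ± 0.679 (n = 3), 85.1% ± 3.63 (n = 2) and 84.2% ± 9.35 (n = 3) in the same order. These shares depend on the length used. With the summed length of all exons in place of the longest transcript, the Myl12a means were 89.6%, 96.7%, 78.5% and 77.4%. Myl9 then reached 34.5% in a WKO confined library.

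Stromal markers varied over the libraries as well. The summed level of the 16 stromal markers was 1191 and 2422 in WT unconfined libraries, 3361 and 3981 in WKO unconfined, 401, 301 and 1105 in WT confined, and 4640, 1330 and 13759 in WKO confined ones. Of the 16, 15 had at least 3 reads in every library of WT unconfined, WKO unconfined and WKO confined cells, and 11 in every WT confined library. The 8 smooth muscle or pericyte markers summed to 97.8 and 246, 441 and 564, 31.1, 72.7 and 155, and 396, 180 and 1311 in the same order of groups and replicates. The WKO confined library with the most Myl9 also had the highest sum of both lists, and the 2 libraries without a Myl9 read had stromal sums of 1191 and 301. In 3 libraries with like stromal sums, 1191 in WT unconfined replicate 1, 1105 in WT confined replicate 6 and 1330 in WKO confined replicate 2, Myl9 was 0, 7.23 and 20.0. The smooth muscle or pericyte sums of these 3 libraries, picked after the values were seen, rose in the same order, at 97.8, 155 and 180. The part of stromal RNA in the Myl9, Mylk, Myh10 and Myl12b values was not tested.

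The genes whose pattern over the 10 libraries was nearest to that of Myl9, by root mean square difference of centred log2 values among 10217 genes with a mean of at least 50, were Cxcl12 (1.03), Sparc (1.04) and Fstl1 (1.08), all 3 of which are among the 16 stromal markers. Sparc, a secreted matrix protein, averaged 141 in WT and 337 in WKO cells without confinement, and 59.6 and 755 in confined cells. For Mylk the nearest were Krt80 (0.431), Ifi203 (0.453) and Dnah2 (0.462), and for Myl12b they were Rims3 (0.406), Il16 (0.436) and 9130023H24Rik (0.438). These distances describe likeness over libraries that share depth, handling and cell makeup.

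**Figure D2:**
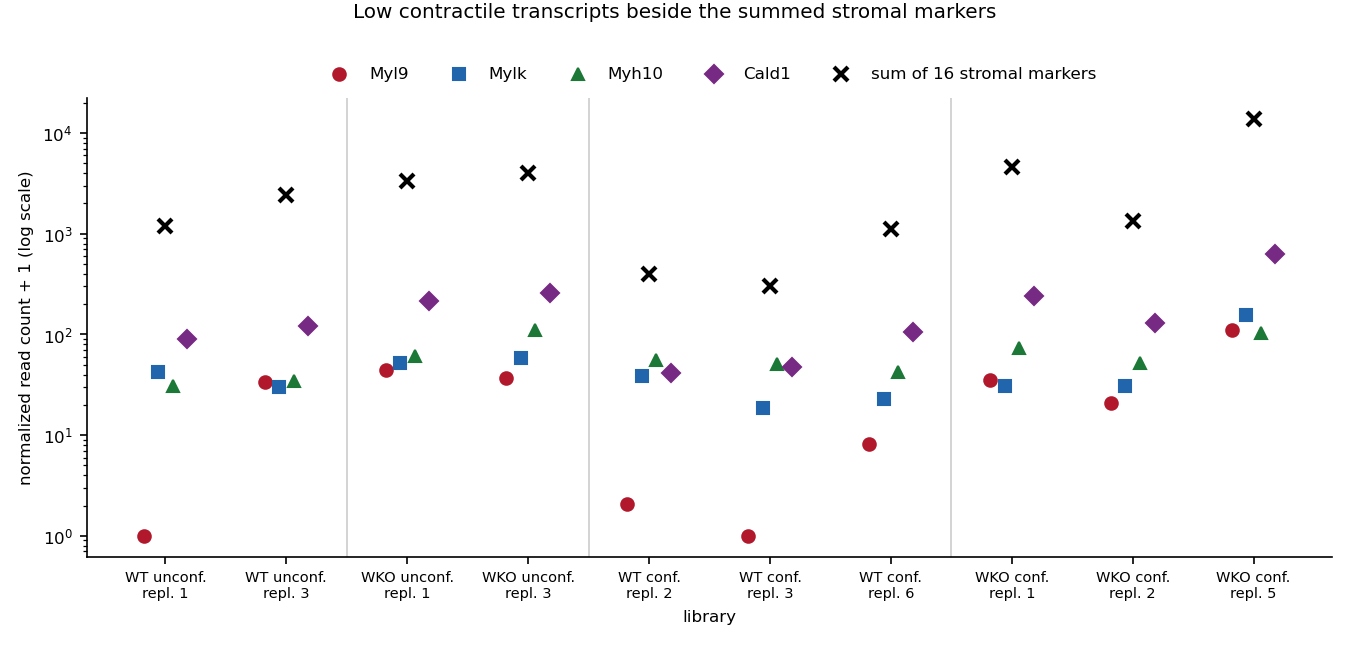
Normalized read counts plus 1 of Myl9, Mylk, Myh10 and the pathway gene Cald1, and the summed level of 16 stromal markers, in each of the 10 libraries, on a log axis. WKO confined replicate 5 had the highest stromal sum (13759) and the highest Myl9 (109), Mylk (156) and Cald1 (634), and Myl9 was at 0 in 1 WT library of each condition.

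The promoter of Myl9 is shown because this gene had the widest spread of the 10. The stretch is chr2:156775214-156775413 on the plus strand (RefSeq, GRCm38.p6), which begins 250 bases before the RefSeq start of the gene, and the capitals mark a CArG box, the element bound by serum response factor, at position -161.
Myl9 promoter: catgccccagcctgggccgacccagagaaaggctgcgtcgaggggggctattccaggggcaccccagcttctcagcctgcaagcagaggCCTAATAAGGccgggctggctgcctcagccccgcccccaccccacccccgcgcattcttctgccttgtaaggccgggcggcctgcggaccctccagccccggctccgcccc

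The search covered the whole RefSeq window of 300 bases, which runs on past the stretch shown, and a CArG box on either strand was present in 535 of 32851 such windows (1.63%). Of the members' 10 windows, which cover 9 of the genes, it was found in that of Myl9 and in 1 of the 2 windows of Myl6. The match is a description of the sequence and does not show binding.

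None of the 3 kinases passed in any comparison. Mylk (chr16:34745210-35002420, plus strand) encodes the calcium and calmodulin-dependent myosin light chain kinase. Its normalized read count was 41.8 and 28.8 in WT unconfined, 51.3 and 56.8 in WKO unconfined, 37.5, 17.6 and 21.7 in WT confined, and 29.8, 29.5 and 156 in WKO confined libraries. Only WKO confined replicate 5 stood far above the others, and it was also the library with the highest stromal sum. The log2 difference between WKO and WT in confined cells was 1.06 (SE 0.570, limma adjusted p = 0.387), and without that library it was 0.28 (adjusted p = 0.817).

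Rock1 and Rock2 encode a pair of paralogous kinases. Rock1 (chr18:10064401-10182045, minus strand) had values of 1487 and 1481 in WT unconfined, 1466 and 1369 in WKO unconfined, 1753, 1895 and 1646 in WT confined, and 1533, 1921 and 2472 in WKO confined libraries. Every confined library was above every unconfined library of the same genotype. The averaged log2 difference for confinement was 0.35 (SE 0.118, 95% interval 0.09 to 0.61), which missed the limma threshold at an adjusted p = 0.108. It was 0.25 in WT (adjusted p = 0.603) and 0.45 in WKO (adjusted p = 0.242). WKO confined replicate 1, the lowest of its group, decided the call: without it the averaged difference was 0.43 (adjusted p = 0.00848). This was not particular to Rock1, since leaving out that library raised the genes called in the whole table from 773 to 1807. By genotype the averaged difference of Rock1 was 0.04 (95% interval -0.22 to 0.29, adjusted p = 0.916).

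Rock2 (chr12:16894895-16987823, plus strand) had values of 1496 and 1240 in WT unconfined, 1560 and 1529 in WKO unconfined, 1325, 1430 and 1493 in WT confined, and 1135, 1766 and 1843 in WKO confined libraries. The WKO confined libraries held both its lowest and its highest value. The averaged limma differences were 0.15 for genotype (95% interval -0.13 to 0.44, adjusted p = 0.563) and 0.03 for confinement (95% interval -0.26 to 0.31, adjusted p = 0.927). Whether the 2 kinases respond differently to confinement was not tested.

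Ppp1r12a (chr10:108162193-108284475, plus strand) encodes MYPT1, the subunit that brings the phosphatase to myosin. Its values were 1804 and 1673 in WT unconfined, 1710 and 1629 in WKO unconfined, 1798, 1866 and 1865 in WT confined, and 1520, 2195 and 2442 in WKO confined libraries. The first 3 groups lay within a narrow range and the WKO confined libraries on both sides of it. The averaged differences were 0.03 for genotype (95% interval -0.22 to 0.29, adjusted p = 0.920) and 0.18 for confinement (95% interval -0.08 to 0.44, adjusted p = 0.415), by limma. In WKO alone the confinement difference was 0.27 (adjusted p = 0.504), and without WKO confined replicate 1 it was 0.47 (adjusted p = 0.0184). The genes called in the whole table for confinement in WKO rose from 214 to 1043 without that library.

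**Figure D3:**
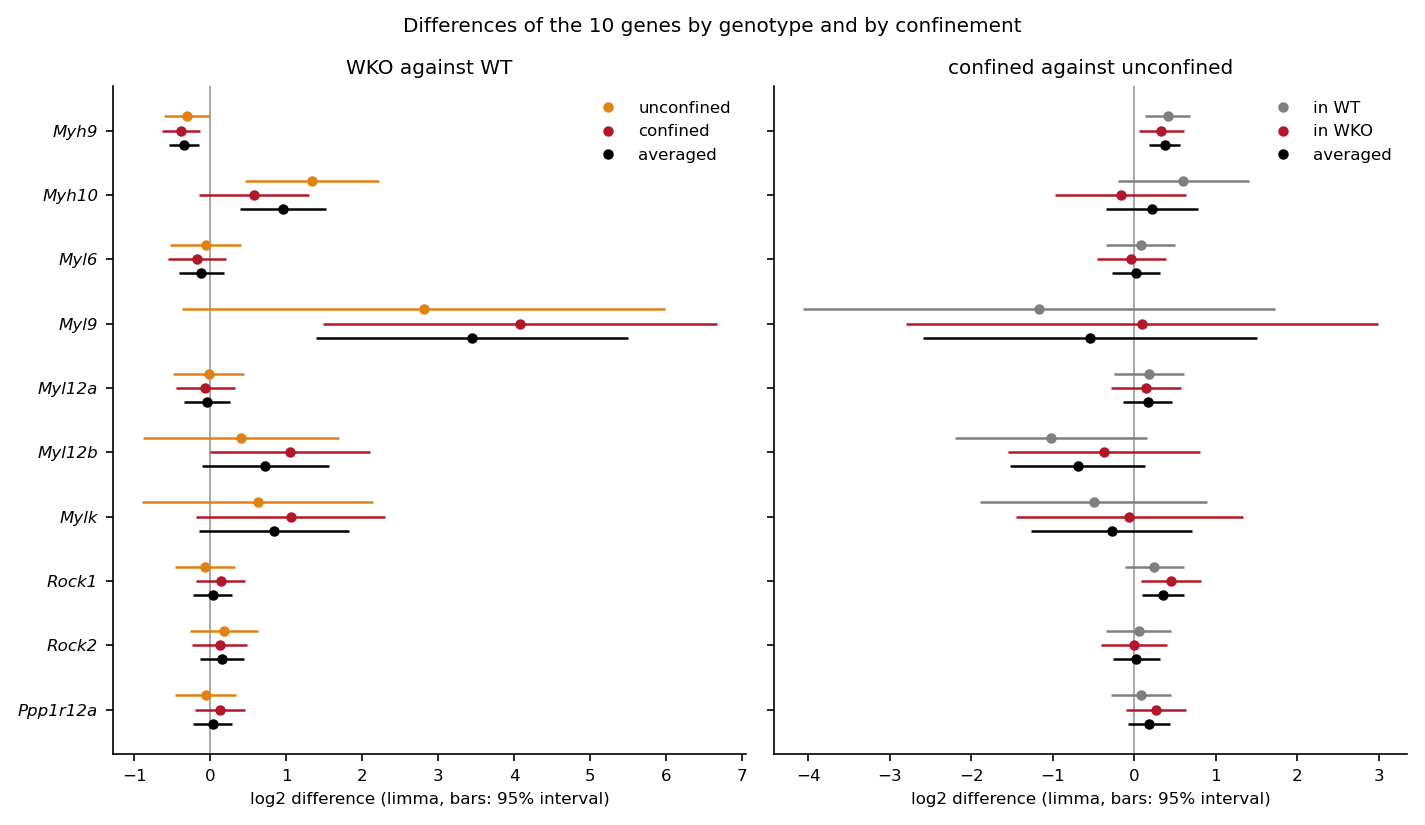
Log2 differences of the 10 genes from limma with 95% intervals, for WKO against WT (left) and confined against unconfined cells (right), in each subgroup and averaged. For Myh9 the averaged intervals, -0.54 to -0.15 and 0.18 to 0.57, lie apart from 0, and the interval of Myl9 by genotype spans 1.39 to 5.49.

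The 3 WKO confined libraries differed from each other over the whole table by transcript length. Over all tested genes, the median deviation from the 10-library mean of the 2458 genes with a coding transcript of at least 5000 bases, minus that of the 1525 genes with one of at most 1500 bases, was -0.30 on the log2 scale in WKO confined replicate 1, 0.20 in replicate 2 and 0.40 in replicate 5. It was 0.07 and -0.31 in WT unconfined, -0.10 and -0.13 in WKO unconfined, and 0.14, -0.0019 and -0.0011 in WT confined libraries. The members followed this order only in part. The mean deviation of Rock1, Rock2 and Ppp1r12a was -0.26, 0.24 and 0.43 in WKO confined replicates 1, 2 and 5, and that of Myl6 and Myl12a was 0.20, 0.04 and -0.30. Myh9, whose longest transcript has 7433 bases, deviated by -0.28, 0.14 and 0.01, and Myh10 (7791 bases) was lowest in replicate 2. Mylk (7824 bases) was lowest in replicate 2 and highest in replicate 5, and so was the short Myl9 (1128 bases), while Myl12b (2143 bases) was highest in replicate 2. Myl6 (1668 bases), Myl12a (1937) and Ppp1r12a (4212) lie outside both classes by their longest coding transcripts. These length classes were set after the values were seen. The part of this shift in the values of Myh9, which is in the long class, of Rock1, Rock2 and Ppp1r12a, and of the other members was not tested.

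**Figure D4:**
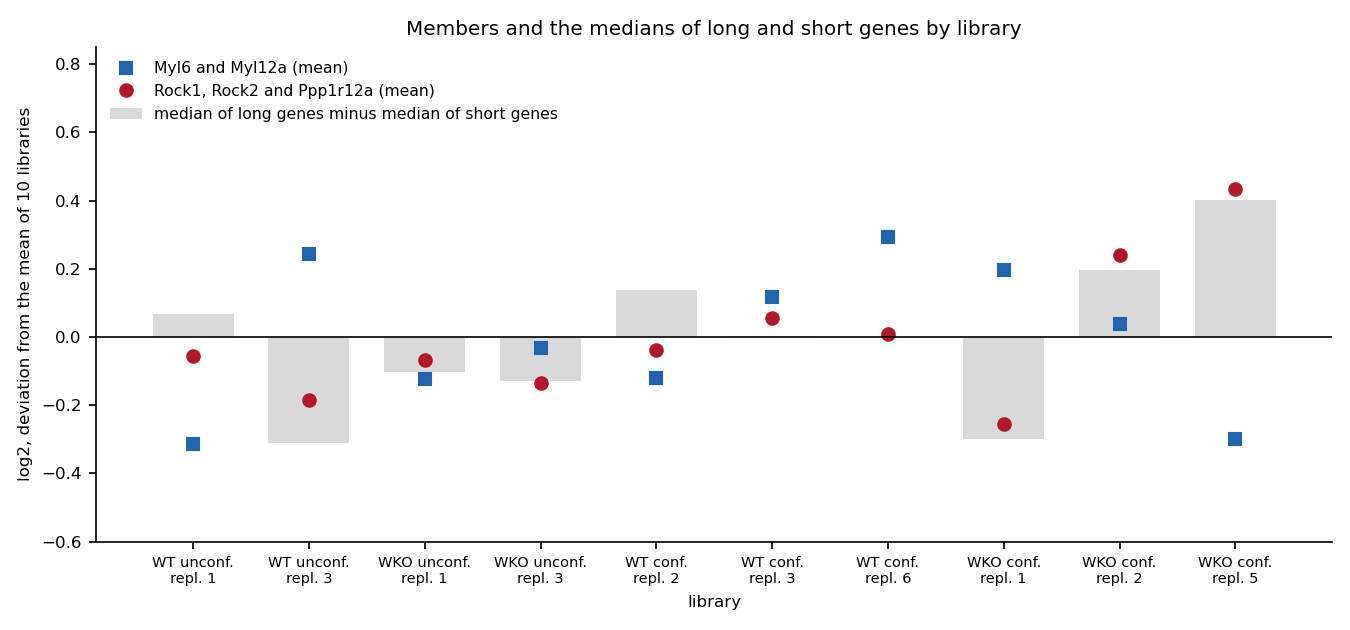
For each library, the median log2 deviation of long genes minus that of short genes (bars), with the mean deviation of Myl6 and Myl12a (squares) and of Rock1, Rock2 and Ppp1r12a (circles), each from its mean over the 10 libraries. Among the WKO confined libraries, replicates 1 and 5 lie at opposite ends, at -0.30 and 0.40 for the bars and at -0.26 and 0.43 for the circles. The lowest bar, at -0.31, is that of WT unconfined replicate 3.

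Counted over the set, 0 of the 10 genes passed with limma in any single-condition comparison. The shares of all tested genes that passed were 0.145% for WKO against WT without confinement, 2.59% with it, 1.16% for confinement in WT and 1.72% in WKO. At an unadjusted p under 0.05 there were 2, 2, 1 and 2 members, beside 9.60%, 16.8%, 12.2% and 14.1% of all tested genes. With edgeR 0 members passed in these 4 comparisons, and with DESeq2 only Myh9 did, in WKO against WT with confinement (adjusted p = 0.0455). Of all 12455 tested genes, edgeR called 15, 319, 116 and 186 in the same order of comparisons. DESeq2 called 179, 775, 332 and 484. For the difference between the confinement effects of the genotypes, no gene of the table passed with limma (0%), 2.07% had an unadjusted p under 0.05, and no member did, the smallest being 0.168 for Myh10. The number of members called by edgeR and DESeq2 in that comparison was also 0, as was the number of all tested genes.

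Without confinement the WKO and WT libraries did not overlap for 6 of the 10 genes, with Myh10, Myl9, Mylk and Rock2 higher in WKO and Myh9 and Rock1 lower, beside 44.9% of all tested genes. In confined cells this held for 3 (Myl9 and Myl12b higher, Myh9 lower), beside 21.1%. Confinement separated 4 in WT (Myh9, Myh10 and Rock1 higher, Myl12b lower), beside 35.9%, and 2 in WKO (Myh9 and Rock1 higher), beside 28.3%. Both conditions gave the same direction without overlap for Myh9 and Myl9, 2 of 10 beside 12.0% of all tested genes, and both genotypes did for Myh9 and Rock1, 2 of 10 beside 13.0%. The median log2 difference over the 10 genes was 0.10 by genotype and 0.10 by confinement, beside 0.00 and -0.02 over all tested genes.

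Levels of different genes were compared per kilobase of the longest annotated transcript, as means over the 10 libraries. The order was Myh9 (1522 normalized reads per kilobase), Myl6 (1365), Ppp1r12a (365), Myl12a (336), Rock1 (264), Rock2 (194), Myl9 (25.2), Myl12b (13.1), Myh10 (7.77) and Mylk (6.01). The ranges over libraries of Myh9 (1139 to 1975) and Myl6 (1001 to 1627) overlapped, as did those of Ppp1r12a and Myl12a and those of Rock1 and Rock2. With the summed length of all exons in place of the longest transcript, Myl6 (1302) stood above Myh9 (875) and Rock2 (107) above Rock1 (94.1). The longest protein-coding transcript of Myl6 is 1668 bases rather than the 3040 of its longest transcript, which would raise its level to 2488, a comparison added after the data were seen.

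The wider pathway was read from 4 lists with 68 genes, of which 56 were tested: small GTPases and their exchange factors, light chain kinases with phosphatase subunits and inhibitors, other ROCK substrates, and myosin II paralogues with filament partners. In the averaged genotype comparison 6 of the 56 passed with limma (10.7%, beside 5.57% of all tested genes), 3 higher and 3 lower in WKO. In the averaged confinement comparison 4 passed, all higher in confined cells, and this share of 7.14% was near the 6.21% of all tested genes. No gene of the lists passed in WKO against WT without confinement, for confinement in WT or for the difference between the confinement effects. Of these 10 averaged calls, those of Actn1 and Ezr held without the mean-variance trend of limma and the other 8 were lost (adjusted p between 0.0548 and 0.130). With no filter on low values Cald1, Tpm1, Ppp1r12b and Rnd3 were lost (adjusted p between 0.0635 and 0.0921).

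Among filament partners, the proteins that cross-link or coat the actin that myosin pulls on, Actn1, Tpm1 and Tpm4 were lower in WKO, as Myh9 was. Actn1, the cross-linker alpha-actinin 1, had values of 6294 and 5575 in WT unconfined, 4070 and 4460 in WKO unconfined, 5806, 5636 and 6481 in WT confined, and 4617, 3913 and 4110 in WKO confined libraries. Every WKO library was below every WT library, whatever the condition. The WKO mean was 0.719 times the WT mean without confinement and 0.705 times with it, and the averaged log2 difference was -0.49 (SE 0.0816), with a limma adjusted p = 0.00613. This call held in all 21 alternatives in which it was recomputed.

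The tropomyosins, which run along actin filaments and set which myosins can bind, gave averaged log2 differences of -0.50 for Tpm4 (SE 0.0935, limma adjusted p = 0.0110) and -0.45 for Tpm1 (SE 0.121, adjusted p = 0.0498). Tpm4 averaged 5755 ± 418 in WT and 3880 ± 88.9 in WKO cells without confinement (SD, n = 2 each), and 5956 ± 270 and 4463 ± 771 in confined cells (n = 3 each). The Tpm4 call was lost without WT unconfined replicate 1 (adjusted p = 0.0631) or WKO unconfined replicate 3 (adjusted p = 0.0723), and that of Tpm1 was kept in 6 of 21 alternatives and, when a library was left out, only without WKO confined replicate 5 (adjusted p between 0.0557 and 0.181 without any other).

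Cald1, which encodes caldesmon, an inhibitor of the actin-activated myosin ATPase, went the other way. It was 88.3 and 121 in WT unconfined, 213 and 259 in WKO unconfined, 40.7, 46.9 and 106 in WT confined, and 240, 128 and 634 in WKO confined libraries. The averaged log2 difference was 1.68 (SE 0.392, limma adjusted p = 0.0296), and 1.37 without WKO confined replicate 5 (adjusted p = 0.0110). The call was lost without either WT unconfined library, either WKO unconfined library, or WT confined replicate 2 or 3 (adjusted p between 0.0679 and 0.140). Like Myl9, Cald1 was highest in the library with the most stromal marker RNA, and the part of that RNA in its values was not tested.

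Ppp1r12b, a second myosin-targeting phosphatase subunit, and Arhgef3, an exchange factor for small GTPases, were also higher in WKO. Arhgef3 had values of 560 and 474 in WT unconfined, 814 and 1209 in WKO unconfined, 814, 798 and 456 in WT confined, and 1202, 1144 and 1290 in WKO confined libraries, with no overlap between genotypes in either condition. Its averaged log2 difference was 0.90 (SE 0.170, limma adjusted p = 0.0113), which was lost without WKO unconfined replicate 3 (adjusted p = 0.0797) and reached 0.05 without WT unconfined replicate 3. That of Ppp1r12b was 0.44 (SE 0.117, adjusted p = 0.0487), kept in 9 of 21 alternatives and, when a library was left out, only without WKO confined replicate 1 or 5 (adjusted p between 0.0905 and 0.216 without any other).

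Averaged over genotypes, Ezr, Rhob, Rnd3 and Septin11 rose with confinement. Ezr encodes ezrin, which ties the cortex to the membrane and is a ROCK substrate. It was 526 and 609 in WT unconfined, 648 and 589 in WKO unconfined, 788, 753 and 856 in WT confined, and 1029, 1278 and 1798 in WKO confined libraries. Every confined library was above every unconfined one, and every WKO confined library was above every WT confined one. The averaged confinement difference was 0.80 on the log2 scale (SE 0.138, limma adjusted p = 0.00545) and held in all 21 alternatives. In WKO alone it was 1.11 (adjusted p = 0.0153), lost without WKO unconfined replicate 1 (adjusted p = 0.120) or 3 (adjusted p = 0.172), with no mean-variance trend (adjusted p = 0.0978) and when fitted on the WKO libraries alone (adjusted p = 0.145).

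Rhob, a small GTPase made in response to stimuli, was 3209 and 4527 in WT unconfined, 2347 and 2241 in WKO unconfined, 4416, 4048 and 6291 in WT confined, and 4903, 3754 and 5987 in WKO confined libraries. The lowest values were those of the WKO unconfined cells. Its averaged confinement difference was 0.70 (SE 0.157, limma adjusted p = 0.0222) and in WKO alone 1.06 (adjusted p = 0.0344). The averaged call was lost without WT unconfined replicate 1 (adjusted p = 0.110) or either WKO unconfined library (adjusted p = 0.0833 and 0.094), and the call in WKO without either WKO unconfined library (adjusted p = 0.247 and 0.278). The call in WKO was also lost with no filter, with no mean-variance trend and when fitted on the WKO libraries alone (adjusted p between 0.0626 and 0.153).

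Septin11, a filament-forming GTPase of the cortex, was 1152 and 969 in WT unconfined, 944 and 877 in WKO unconfined, 1594, 1565 and 1530 in WT confined, and 1041, 1521 and 1730 in WKO confined libraries. Its averaged confinement difference was 0.59 (SE 0.129, limma adjusted p = 0.0196). The call was lost without WT unconfined replicate 3, WT confined replicate 2 or 3, or either WKO unconfined library (adjusted p between 0.0515 and 0.0946). With the replicate block the difference was 0.38 (adjusted p = 0.242). Rnd3, an atypical small GTPase that binds and inhibits ROCK1, averaged 48.7 ± 6.40 in WT and 58.9 ± 39.5 in WKO cells without confinement (SD, n = 2 each), and 128 ± 37.8 and 217 ± 168 in confined cells (n = 3 each). In WKO the groups overlapped, at 86.8 and 31.0 in unconfined and 158, 85.3 and 406 in confined libraries. The value of 406 was that of replicate 5, which had the highest stromal sum, and the part of stromal RNA in the Rnd3 values was not tested. The averaged confinement difference of Rnd3 was 1.54 (SE 0.401, limma adjusted p = 0.0433), kept in 13 of 21 alternatives. It was lost without any WT library or WKO unconfined replicate 3 (adjusted p between 0.078 and 0.197).

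**Figure D5:**
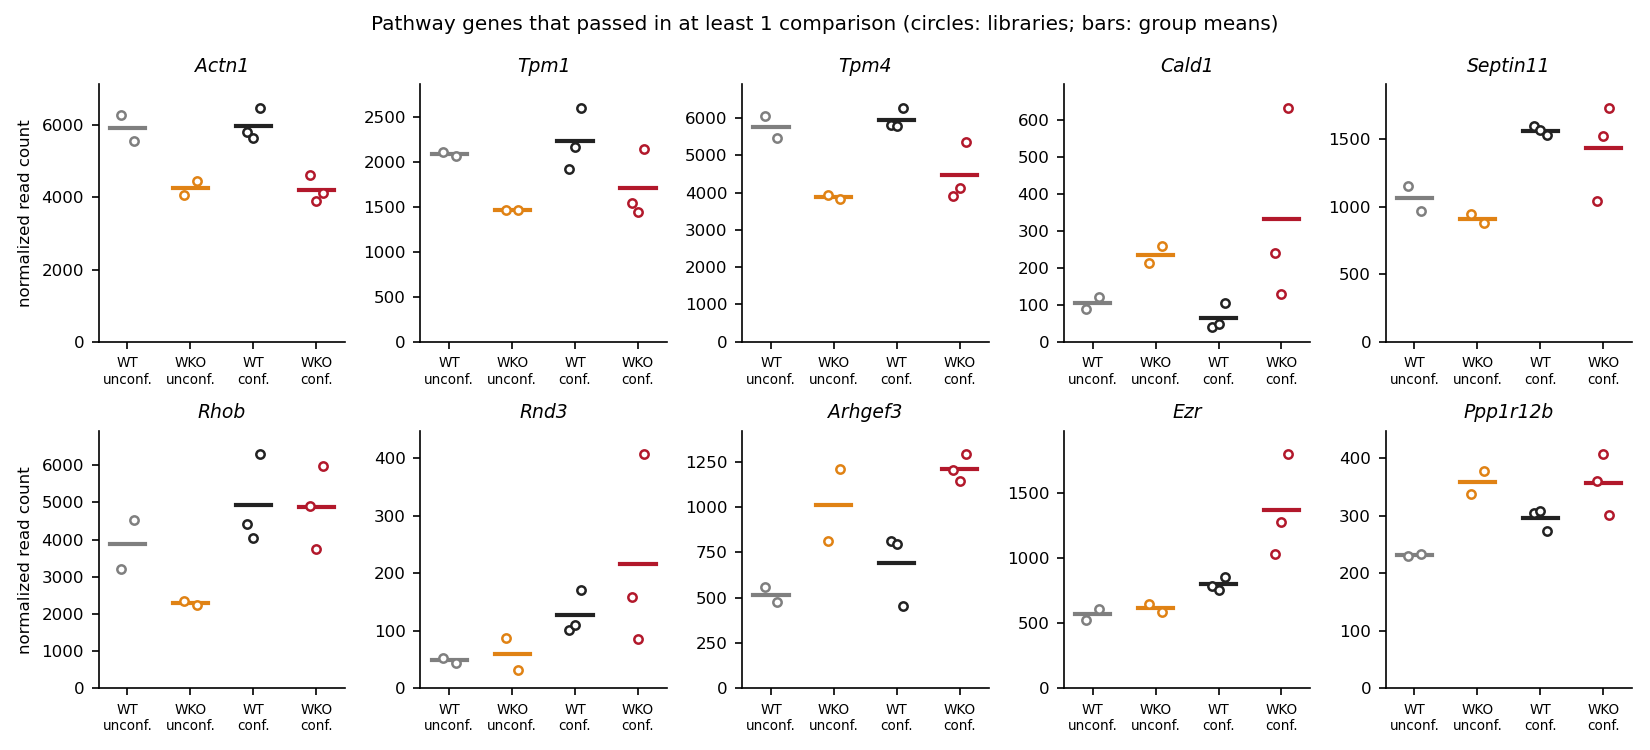
Normalized read counts of the 10 pathway genes that passed with limma in at least 1 comparison, in each library (circles) with group means (bars), on linear axes from 0 that differ between panels. Actn1, Tpm1 and Tpm4 have lower means in both WKO groups, and every confined library of Ezr (753 to 1798) lies above every unconfined one (526 to 648).

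In confined cells alone, 3 of the 56 pathway genes differed between WKO and WT by limma (5.36%, beside 2.59% of all tested genes). Actn1 was lower by a log2 difference of -0.50 (adjusted p = 0.0270), Cald1 was higher by 2.18 (adjusted p = 0.0415) and Ezr was higher by 0.74 (adjusted p = 0.0483). Leaving out 1 library ended the Actn1 call in 4 of 6 cases (any WT confined library or WKO confined replicate 2, adjusted p between 0.0754 and 0.110), the Cald1 call in 2 of 6 (WT confined replicate 2 or 3, 0.144 and 0.157) and the Ezr call in all but the omission of WKO confined replicate 1 (0.0578 to 0.168). All 3 calls were also lost with no filter on low values, with no mean-variance trend and when fitted on the confined libraries alone (adjusted p between 0.0590 and 0.135). With the replicate block Actn1 and Ezr were lost (adjusted p = 0.144 and 0.103), and with TMM scaling Ezr was (adjusted p = 0.0529). The list medians of the averaged log2 differences lay between -0.04 and 0.12 by genotype and between -0.01 and 0.20 by confinement, beside 0.00 and -0.02 for all tested genes.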

How the data were processed

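The authors' table, as deposited, gives a depth-normalized signal (reads over a size factor) for each gene in each library. The submitters' processing notes name FastQC, Trim Galore, STAR, GRCm38 and mm10 without roles; versions, the counting tool, its annotation and strand use are not given in the sources used here. In each library 100% of values above 0 were whole multiples of the value of 1 read (tolerance 1e-06), so reads were recovered. Scaling by 1 factor does not remove differences of composition or transcript length. The RNA input per library was 5 ng, per the labels. Replicates differed by a chi-square of 7.56 to 78.3 per degree of freedom and were counted separately.

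The tests were run on log2(value + 1) with limma 3.58.1 in R 4.3.3. The fit had 1 mean per group, all 10 libraries, 6 residual degrees of freedom and empirical Bayes with trend. Benjamini-Hochberg adjustment was over 12455 genes at 0.05. The change of low genes can come out smaller or larger on this scale than with edgeR on the recovered reads. For WKO against WT, Mylk in confined cells was 1.06, against 1.45 with edgeR. Myl9 without confinement, where 1 library was at 0, was 2.81, against 1.28 with edgeR. The 7 comparisons were WKO against WT and confined against unconfined in each subgroup and averaged, and the difference between the confinement effects; those that share libraries are not independent. The test was tried on simulated data. Alternatives included edgeR 4.0.16, DESeq2 1.42.0, other scalings, pseudocounts and filters, array weights, the replicate number as a block, and leaving out each library. Positions, overlaps and transcript lengths are from GENCODE M21 (GRCm38), which is not the annotation of the table, since the table holds newer identifiers. Similar transcripts were searched with blastn 2.17.0. Intervals and floors cover counting or library spread, not PCR duplicates, since reads carry no molecular identifiers in the sources used here.

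The members and lists were chosen with earlier results of these data known. Named were all members, Was, list genes past the threshold (at most 8 per comparison by p) and the 3 nearest patterns of the 3 most variable members.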

Additional observations from a re-analysis of the deposited data

How the results depend on the processing

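Myh9 kept its direction in all 21 alternatives of both averaged comparisons and passed in 10 of each (log2 -0.39 to -0.27, adjusted p 0.0106 to 0.189 by genotype, and 0.23 to 0.44, adjusted p 0.000706 to 0.407, by confinement). Members called by genotype numbered 0 with no filter, no mean-variance trend or upper-quartile scaling, 2 with a pseudocount of 5 or DESeq2, and 4 with array weights (Myh9, Myh10, Myl9, Myl12b). Of all 12455 tested genes, 360 passed by genotype with no trend, 690 with upper-quartile scaling and 725 with a pseudocount of 5. DESeq2 called 1147 and array weights 1804, and with no filter 438 of 23591 genes passed. By confinement the members called numbered 0 with no filter or no trend and 2 with array weights. In the whole table these settings called 533, 424 and 2220 genes, in that order. Leaving out a library gave 0 to 2 members by genotype and 0 to 3 by confinement. The whole table then gave 169 to 1115 and 288 to 1807 genes. In confined cells WKO against WT gave 2 with array weights and 1 with DESeq2, confinement in WT gave 1 with array weights or when fitted on those groups alone, and confinement in WKO gave 3 with array weights and 0 to 3 with a library left out. In the same order, the whole table gave 1948 and 775 genes, 419 and 455, and 1735 and 43 to 1043. The cause was not tested. Array weights were lowest for WKO confined replicates 1 and 5 (0.283 and 0.321).

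Same-numbered libraries did not deviate together (r between -0.110 and 0.076), so the numbers were not taken as pairs. The replicate block leaves 2 residual degrees of freedom. With it 0 members were called by confinement and 1 by genotype (Myl9, not Myh9), beside 383 and 799 of all tested genes. Some of the differences under 0.2 changed sign with the block: Ppp1r12a -0.016 and Rock2 -0.19 by confinement, and Myl6 0.073, Myl12a 0.14, Rock1 -0.065 and Ppp1r12a -0.020 by genotype. Leaving out a library turned the sign of Myl6 (-0.24 to 0.0083 by genotype, -0.10 to 0.15 by confinement), Myl12a (-0.19 to 0.11), Rock1 (-0.052 to 0.12) and Ppp1r12a (-0.035 to 0.14) by genotype and Rock2 by confinement (-0.040 to 0.14). Adding the reads of Myl12a and Myl12b, an alternative chosen after the data were seen, gave no pass for the sum in either averaged comparison.

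Genes called in the whole table ranged over the alternatives from 169 to 1804 by genotype (694 as reported), 288 to 2220 by confinement (773), 4 to 245 for WKO against WT without confinement (18), 53 to 1948 with it (322), 20 to 455 for confinement in WT (144) and 33 to 1735 in WKO (214). With 2 or 3 libraries per group, and at most 109 normalized reads in any library for Myh10, Myl9 and Myl12b and 156 for Mylk, differences of these 4 genes are limited by depth and spread.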

Other observations

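Markers of other blood cells, which also use myosin II, differed between the groups. The 6 B-lineage markers summed to 810 and 874 in WT unconfined, 4417 and 4047 in WKO unconfined, 793, 616 and 410 in WT confined, and 5198, 3525 and 1572 in WKO confined libraries, with every WKO library above every WT one. The megakaryocyte and platelet markers summed to between 3590 and 5191 in WT and between 4871 and 8016 in WKO libraries. Nearly all of this sum was 1 gene, Pf4, with 3484 to 4873 in WT and 4703 to 7697 in WKO libraries, while Gp1bb was at 0 throughout. The macrophage markers summed to between 191485 and 224770 in WT and between 265389 and 325482 in WKO libraries. Most of this sum was Lyz2, with 100507 to 132963 in WT and 157886 to 200203 in WKO libraries. Without confinement 2 markers of this list went the other way. Itgam was 2149 to 2299 in WKO against 2458.5 to 2830 in WT, and Spi1 was 3198 to 3234 against 3528 to 4323. The part of cell makeup in the Myh9 values was not tested. Endothelial markers summed to between 93.8 and 214, T and NK markers to at most 12.5, and erythroid markers to at most 78.7 in any library.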
